A study of Mus musculus with 2 samples.

Results

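The small RNAs described here were those of fetal mouse testis that matched the ORF1 region of a LINE-1 (L1) retrotransposon, on either strand. They were chosen by position alone. The reference was a 6046-nt L1 copy read as the reverse complement of the GENCODE M21 transcript of Gm47578, and a sequence of 16 to 36 nt was a member when it was neither miRNA nor structural RNA, could be placed on the copy with up to 2 mismatches, and had its 5′ end at positions 601 to 1850. Of the 1132769 distinct sequences of both libraries, 10040 were members, which took 28184 WT and 10160 KO reads. Each had a single best place on the copy.

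The WT sample was a pool of 20 testes of C57BL/6 fetuses at embryonic day 16.5, and the other sample was a pool of 20 testes of the same strain and age labelled Hsp90-alpha KO, each sequenced as 1 library. Hsp90α, encoded by Hsp90aa1, is the inducible cytosolic form of the HSP90 chaperone. The libraries held 6409305 reads (WT) and 5589326 reads (KO), and counts were scaled to the 2523084 and 2561491 miRNA reads in them. Sense fragments of Hsp90aa1 numbered 21 reads in WT and 37 in KO, a scaled KO/WT ratio of 1.74 (95% Clopper-Pearson interval 0.990 to 3.12), and those of Hsp90ab1, the constitutive form, 40 and 46. The part of the gene that the mutant allele lacks is not given in the sources used here, so these fragments did not check the genotype, and "KO" below rests on the label. Mir202, a miRNA of gonadal support cells, had 5037 and 5466 reads. Of markers of other tissues, blood Mir451a had 578 and 495 and blood Mir144 113 and 66, muscle Mir133a-1 had 50 and 40 and muscle Mir1a-1 0 and 3, brain Mir9-1 had 41 and 35 and brain Mir124a-1 1 and 2, and liver Mir122 had 16 and 1. The KO/WT ratio was 0.575 (0.418 to 0.786) for Mir144 and 0.844 (0.747 to 0.953) for Mir451a, and the part of such cells in the results was not tested. With 1 library per genotype there was no replicate check of any difference. Intervals and Fisher's exact tests below cover the counting of reads in these libraries, not variation between animals, and PCR copies were not told apart.

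LINE-1 elements move by copying their RNA back into DNA. ORF1 encodes the RNA-binding protein that coats L1 RNA and ORF2 the endonuclease and reverse transcriptase. In prospermatogonia, the male germ cells of the fetal testis, PIWI proteins carry piRNAs of about 24 to 33 nt that recognize L1 RNA. A PIWI protein guided by a piRNA cuts the opposite strand at a fixed place, so that the 5′ ends of guide and product overlap by 10 nt. Guides commonly begin with uracil, and their products then have adenine at the 10th position. This reciprocal cutting is called the ping-pong cycle.

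The label of the region held up against the sequence, with a limit at its 3′ side. The copy carried an open reading frame of 357 codons at positions 599 to 1672 (ORF1) and one of 1281 codons from position 1713 (ORF2). The 1250-nt window therefore comprised 1072 nt of ORF1, 40 nt between the frames and the first 138 nt of ORF2. In GRCm38 it lies at chr10:99723339-99724588 on the minus strand, in exon 1 of Gm47578, a gene of antisense biotype on the plus strand. The place names a position in an L1 element and not the locus of origin. Sequences holding 61.6% of the WT reads of 24 to 33 nt in the window matched transcripts of 10 or more genes exactly, and only 4 sequences, with 5 WT and 0 KO reads, matched Gm47578 and no other gene.

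The 5 pairs of sense and antisense 5′ ends with the most reads that overlapped by 10 nt are shown first, since they carry the pattern of the region. Each line gives the most abundant 24–33-nt RNA of that end, 5′ to 3′, named by strand and by the position of its 5′ end on the copy, with the 10 bases that face its partner in capitals.
sense-1038: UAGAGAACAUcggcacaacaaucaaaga
antisense-1047: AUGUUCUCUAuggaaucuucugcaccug
sense-625: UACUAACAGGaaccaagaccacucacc
antisense-634: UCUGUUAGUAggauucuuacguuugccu
sense-1467: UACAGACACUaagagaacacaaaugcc
antisense-1476: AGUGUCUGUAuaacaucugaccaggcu
sense-1508: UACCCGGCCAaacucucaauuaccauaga
antisense-1517: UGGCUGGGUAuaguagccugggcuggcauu
sense-1279: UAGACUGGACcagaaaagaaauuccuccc
antisense-1288: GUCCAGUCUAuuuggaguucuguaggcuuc
All 5 sense RNAs began with uracil and all 5 antisense RNAs had adenine at the 10th position. These are not separate observations. The pairs were chosen to overlap by 10 nt on the same copy, so the 10th antisense base faces the first sense base. Apart from mismatches to the copy, the adenine follows from the uracil, and the complementarity follows from the placement. The capitals were complementary at 10 of 10 bases in the pairs at 1038, 1467 and 1279, and at 9 of 10 in the pairs at 625 and 1508. In those at 625 and 1508 an RNA differed from the copy within the capitals. Counted from its own 5′ end, with the base of the copy first, sense-625 carried A10G and antisense-1517 carried C5U.

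RNAs of 24 to 33 nt made up 93.5% of WT and 91.9% of KO reads of the region. They numbered 26352 reads in WT and 9341 in KO, or 10444 and 3647 reads per 1000000 miRNA reads. The KO/WT ratio was 0.349 (95% interval 0.341 to 0.358), a 2.86-fold lower level in the KO library. In whole testes, fewer germ cells and fewer piRNAs per germ cell cannot be told apart. The 6 germ cell miRNAs of the miR-290 cluster together had 2005 WT and 2641 KO reads, a ratio of 1.30 (1.22 to 1.38), and each of the 6 had a ratio above 1. The interval included 1 for Mir290a (0.681 to 2.66), Mir292 (0.965 to 1.27) and Mir294 (0.941 to 1.41). Mir295 held 1045 of these WT reads and 1428 of the KO reads. All 24–33-nt RNAs of the libraries that were neither miRNA nor structural had a ratio of 0.628 (0.627 to 0.630), and structural RNA fragments of that size had 0.874 (0.864 to 0.883). The interval of the region lay below both. The part of this library-wide difference in the value of the region was not tested.

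Sense RNAs, which have the sequence of L1 mRNA, were more abundant than antisense RNAs in both libraries. Sense RNAs of 24 to 33 nt numbered 15556 reads in WT and 5984 in KO, a ratio of 0.379 (0.368 to 0.390). Antisense RNAs numbered 10796 and 3357, a ratio of 0.306 (0.295 to 0.318). Antisense RNAs were lower in KO by more than the counting error relative to sense RNAs (Fisher's exact test on reads, p = 1.04e-17, adjusted p = 3.12e-17 by the Benjamini-Hochberg method over the 12 comparisons of ratios made here). The sense share was 59.0% (95% Wilson interval 58.4 to 59.6) in WT and 64.1% (63.1 to 65.0) in KO. Without the 5 fullest 5′ ends of each strand sense RNAs had a ratio of 0.385 (0.372 to 0.399) and antisense RNAs 0.316 (0.299 to 0.335).

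The strands differed in length profile. Sense RNAs formed a plateau, with 3331 WT reads of 27 nt, 3263 of 28 nt and 3401 of 29 nt, against 1284, 1294 and 1292 in KO. Antisense RNAs peaked at 28 nt, with 3706 WT and 1037 KO reads, against 2094 and 723 at 27 nt and 2112 and 620 at 29 nt. The size ranges of 24 to 27 nt and of 28 to 32 nt are those usually assigned to MILI and to MIWI2, the PIWI proteins of this stage. For sense RNAs the KO/WT ratio was 0.382 (0.362 to 0.402) in the shorter range and 0.381 (0.367 to 0.395) in the longer one, a difference not detectable at this depth (Fisher's exact test, p = 0.949). For antisense RNAs it was 0.332 (0.310 to 0.355) and 0.296 (0.282 to 0.311), a difference larger than the counting error (Fisher's exact test, p = 0.00654, adjusted p = 0.00980). By single length, however, the antisense ratio varied within both ranges. It was 0.402, 0.374, 0.284 and 0.340 at 24, 25, 26 and 27 nt. From 28 to 32 nt it was 0.276, 0.289, 0.346, 0.389 and 0.366. The end antisense-1047, with a ratio of 0.280, had 48.4% of its 4281 WT reads at 28 nt. Its part in the difference was not tested.

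Reads were concentrated at few 5′ ends, above all on the antisense strand. Antisense RNAs of 24 to 33 nt began at 529 positions in WT and 336 in KO, but 4 of them held over 50% of the reads in either library. Sense RNAs began at 648 and 481 positions, and 15 ends were needed for the same share in each library. The hot spots were largely shared: of the 10 fullest ends of each library, 9 were the same on the sense strand and 8 on the antisense strand.

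The fullest 5′ end was antisense-1047, in codon 150 of the 357 of ORF1 (chr10:99724142-99724169 for the RNA shown, which matched the copy without mismatch). It held 4281 WT and 1218 KO reads, or 1697 and 475.5 per 1000000 miRNA reads, which were 39.7% and 36.3% of the antisense reads, with a ratio of 0.280 (0.263 to 0.299). Its partner sense-1038, in codon 147, held 1327 and 539 reads, 8.53% and 9.01% of the sense reads, with a ratio of 0.400 (0.361 to 0.443). The KO/WT ratio of antisense-1047 was thus lower than that of its partner, with no overlap of their intervals. There were 3.23 antisense reads for each sense read of this pair in WT and 2.26 in KO.

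The pair of sense-625 and antisense-634, at the very start of ORF1 (codon 9), was the only other one of the 5 with more antisense than sense reads. Sense-625 had 335 WT and 124 KO reads, a ratio of 0.365 (0.294 to 0.449), and antisense-634 had 710 and 227, a ratio of 0.315 (0.270 to 0.366). In the remaining pairs sense reads outnumbered antisense reads in both libraries. Sense-1508 had 812 WT and 307 KO reads and a ratio of 0.372 (0.326 to 0.425), and its partner antisense-1517 had 108 and 41 and a ratio of 0.374 (0.254 to 0.540). Sense-1467 had 771 and 244 reads (ratio 0.312, 0.269 to 0.360), with 149 and 49 at antisense-1476 (0.324, 0.230 to 0.450). Sense-1279 had 675 and 296 reads (0.432, 0.375 to 0.496), with 92 and 32 at antisense-1288 (0.343, 0.222 to 0.517). Partner intervals overlap in these 3 pairs and in the pair at 625.

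Some hot spots had few reads at the 10-nt partner position. They are shown for that reason, with the 10 bases of the 5′ end in capitals.
sense-1798: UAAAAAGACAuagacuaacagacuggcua
antisense-629: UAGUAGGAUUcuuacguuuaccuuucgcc
antisense-1002: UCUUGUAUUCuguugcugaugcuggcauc
Sense-1798, which lies in ORF2 and not in ORF1, had 827 WT and 242 KO reads (ratio 0.288, 0.249 to 0.333), against 15 and 3 antisense reads at its partner position 1807. Antisense-629 had 321 and 150 reads (0.460, 0.377 to 0.560), against 4 and 3. Antisense-1002 had 267 and 51 reads (0.188, 0.137 to 0.255), against 5 and 6. The last of the 5 fullest antisense ends, antisense-631, had 232 WT and 111 KO reads (0.471, 0.372 to 0.593), with 34 and 13 at its partner position. Antisense-629, antisense-631 and antisense-634 thus formed a cluster of ends within a few bases at the start of ORF1.

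The lower level in KO was seen at nearly every end with enough reads to read a ratio. Of the 105 ends that reached 50 reads over WT and KO, all had a ratio below 1, and 85 had a ratio of at most 0.5. The interval lay below 1 at 65 of the 71 sense ends and at all 34 antisense ends. The share at or below 0.5 was 81.0% in the region, against 79.2% over all such 5′ ends of the L1 copy, the region included, and 78.6% over the 332 ends outside it. The median ratio was 0.385 (quartiles 0.321 and 0.493) over the 71 sense ends and 0.322 (0.278 and 0.411) over the 34 antisense ends. Counted by single sequences with at least 20 reads, 179 of 213 members (84.0%) had a ratio of at most 0.5, against a background of 25.5% over the 11159 such 24–33-nt sequences of the libraries. None of the 213 members had a ratio of 2 or more, against a background of 1.29%. With a minimum of 10 reads, a choice made after seeing the data, 353 of 454 members (77.8%) had a ratio of at most 0.5, against a background of 32.4%, and 0 had a ratio of 2 or more, against 3.06%. One library per genotype allowed no other test of these counts.

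The lowest ratios among those 105 ends were at antisense-1488, with 79 WT and 5 KO reads (0.0623, 0.0197 to 0.152), sense-1465, with 58 and 10 (0.170, 0.0774 to 0.335), and antisense-1002. The highest were at sense-741, with 42 and 34 reads (0.797, 0.492 to 1.28), sense-1117, with 30 and 24 (0.788, 0.441 to 1.39), and sense-747, with 74 and 50 (0.666, 0.455 to 0.966). At the former 2 of these 3 the interval includes 1. Most of these extremes rest on few reads.

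Along the region the ratio was taken in windows of 50 nt. On the sense strand all 25 windows had at least 50 reads, and the ratio ranged from 0.273 to 0.562 with a median of 0.394. On the antisense strand 21 windows did, with a range of 0.227 to 0.453 and a median of 0.319. Each of these intervals lay below 1. Sense RNAs starting in ORF1 had a ratio of 0.389 (0.377 to 0.402), and those starting in the first part of ORF2 had 0.307 (0.279 to 0.338). For antisense RNAs the values were 0.308 (0.296 to 0.321) and 0.255 (0.203 to 0.317), whose intervals just overlap. Of the 1795 WT and 560 KO sense reads in that part of ORF2, sense-1798 held 827 and 242, with a ratio of 0.288. Sense-1714 held 271 and 54, with a ratio of 0.196 (0.144 to 0.264). The sense value of that part was not computed without these ends.

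By reads, the base shares differed between the strands, and the antisense shares depended on the end antisense-1047, as given below. Sense RNAs of 24 to 33 nt began with uracil in 78.8% (95% Wilson interval 78.2 to 79.4) of the WT and 78.4% (77.4 to 79.4) of the KO reads, although uracil makes up 16.3% of the sense window. Adenine was at the 10th position in 36.3% (35.6 to 37.1) and 37.2% (35.9 to 38.4), below the 44.4% adenine of the sense window. Among antisense RNAs, uracil came first in 40.6% (39.6 to 41.5) and 41.3% (39.7 to 43.0), and adenine was 10th in 75.6% (74.8 to 76.4) and 73.5% (72.0 to 75.01), where the antisense window has 44.4% uracil and 16.3% adenine. No difference between the libraries in these 4 shares passed the threshold of 0.05 after adjustment over the 4 tests. The smallest p was that of the last share (Fisher's exact test, p = 0.0164, adjusted p = 0.0655).

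Much of the antisense pattern came from antisense-1047, which begins with adenine. Without it and its partner, uracil came first in 67.1% of WT and 64.7% of KO antisense reads, and adenine was 10th in 61.2% and 59.3%. Counting every distinct sequence a single time, 54.0% of the antisense RNAs of either library had adenine at the 10th position, against 45.4% (WT) and 46.7% (KO) of sense RNAs. Structural RNA fragments of 24 to 33 nt had first-position uracil in 26.04% of WT reads and adenine at the 10th position in 24.7%.

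The KO/WT ratio was below 0.5 in each class of RNA defined by these bases. Sense RNAs with uracil first and no adenine at the 10th position, the form of a primary guide, had 8383 WT and 3258 KO reads and a ratio of 0.383 (0.368 to 0.399). Antisense RNAs with adenine at the 10th position and no uracil first, the form of a ping-pong product, had 5796 and 1771 reads and a ratio of 0.301 (0.285 to 0.317). The reverse forms had 1776 and 789 sense reads, a ratio of 0.438 (0.402 to 0.476), and 2011 and 689 antisense reads, a ratio of 0.337 (0.309 to 0.368). RNAs with both bases had 0.365 (0.343 to 0.388) on the sense and 0.290 (0.266 to 0.316) on the antisense strand, and those with neither had 0.325 (0.293 to 0.360) and 0.316 (0.268 to 0.371). The most abundant RNA of antisense-1047 has the form of a ping-pong product. That end held 4281 WT and 1218 KO reads in all, with a ratio of 0.280, and the class was not computed without it. All antisense 24–33-nt RNAs without that end had a ratio of 0.323 (0.308 to 0.340). The antisense interval lay wholly below the sense interval for RNAs with both bases and for those with adenine at the 10th position alone, and the intervals met or overlapped in the remaining classes. Overlap of intervals does not show equal ratios, and the strands were not tested against each other within a class.

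The 10-nt overlap was the most frequent one between sense and antisense 5′ ends in both libraries. Weighted by the product of their reads, 56.4% of the pairs overlapping by 1 to 30 nt did so by 10 nt in WT and 55.3% in KO, while the other overlaps averaged 1.504% and 1.542%. The pair of sense-1038 and antisense-1047 held 88.6% and 88.2% of this 10-nt weight. Without its ends the shares at 10 nt were 18.5% and 18.6%, and by distinct sequences they were 12.8% and 14.2%. Weighted by the smaller read count of each pair, a choice made after seeing the data, they were 11.6% and 13.0%, against means of 3.049% and 2.999% at the other overlaps. Of the sense reads, 87.0% in WT and 77.5% in KO had at least 1 antisense RNA at the 10-nt partner position in the same library, against 57.0% and 38.6% averaged over the other overlaps. The KO library had fewer reads of the region, and the part of this in its lower shares was not tested. Sense RNAs with a partner in either library had a ratio of 0.384 (0.372 to 0.397) and those without one 0.336 (0.305 to 0.369).

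RNAs of 19 and 16 nt, the lengths in which the study looked for leftovers of ping-pong cleavage, stood above their neighbours in length. There were 263 WT and 189 KO reads of 19 nt, against neighbour averages (18 and 20 nt) of 86.0 and 56.0 reads, and 199 and 129 reads of 16 nt, against 63 and 31 of 17 nt. The KO/WT ratio was 0.708 (0.584 to 0.857) at 19 nt and 0.639 (0.508 to 0.801) at 16 nt. Both lay above the 0.349 of the 24–33-nt RNAs (Fisher's exact test, p = 7.88e-13 and p = 2.68e-07). Over the whole libraries, RNAs of 19 nt and 16 nt that were neither miRNA nor structural had ratios of 0.9396 and 0.987, also above the 0.628 at 24 to 33 nt. The part of this length difference in the values of the region was not tested.

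In WT, 132 of 181 sense 19-nt reads (72.9%) ended on the base just before a sense 24–33-nt RNA began, and 118 (65.2%) began where an antisense 29-nt RNA ended. In KO these were 73 of 137 (53.3%) and 51 (37.2%). For sense 16-nt reads, 115 of 136 (84.6%) in WT and 78 of 93 (83.9%) in KO ended just before one, and 98 and 66 began where an antisense 26-nt RNA ended. The antisense strand did not show the lower KO values of the sense 19-nt reads. There 72.0% of 82 WT and 71.2% of 52 KO reads of 19 nt ended just before an antisense 24–33-nt RNA, and 43.9% and 50.0% began where a sense 29-nt RNA ended. For antisense 16-nt reads these shares were 74.6% of 63 WT and 66.7% of 36 KO reads, and 69.8% and 55.6%. In the 1250-nt window, sense 24–33-nt RNAs began at 648 positions in WT and 481 in KO, and antisense ones at 529 and 336. Some short RNAs would thus end just before one by position alone. The shares that position alone would give were not computed. Differences between the libraries in these shares were not tested.

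The most abundant 19-nt and 16-nt RNAs shared their 3′ end at 2 sites of the sense strand, and are shown for that reason, with no base marked by capitals.
19-nt sense 1504: acuauacccggccaaacuc
16-nt sense 1507: auacccggccaaacuc
19-nt sense 932: acgcuggagauagaaaccc
16-nt sense 935: cuggagauagaaaccc
The pair ending at 1522 had 27 WT and 14 KO reads of 19 nt and 33 and 38 of 16 nt. It was followed by few 24–33-nt RNAs, 7 and 4 reads at 1523, with 42 and 18 antisense reads at 1532, the position 10 nt into them. The pair ending at 950 had 10 and 9 reads of 19 nt and 28 and 11 of 16 nt. It was followed by 252 and 102 reads at sense-951, with 22 and 5 antisense reads at 960. At these 2 sites the one with fewer 24–33-nt RNAs downstream had more short RNAs. A 19-nt RNA at 1833, with 17 WT and 13 KO reads, had no 24–33-nt RNA directly downstream, at 1852, and a 16-nt RNA at 1038, with 7 and 2 reads, had none at 1054.

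The RNAs of the region came from more than one form of L1. Of the 24–33-nt reads, 49.8% in WT and 47.0% in KO matched the copy without mismatch, and the KO/WT ratio was 0.330 (0.319 to 0.341) for these, 0.367 (0.352 to 0.382) with 1 mismatch and 0.372 (0.352 to 0.393) with 2. At 302 positions covered by at least 1000 reads, 13 differing bases reached 10% of the reads, of which 12 lay in ORF1, 9 at the third base of a codon, and 9 would leave the encoded amino acid as it is. These sites were listed after their values were seen. With positions counted on the copy and its base first, all 882 WT and 345 KO reads across position 1402 carried G1402U and none the base of the copy, and A1264C was carried by 80.8% and 82.2%.

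The most abundant RNA of sense-1038 carried A1050G and G1058A together, positions 13 and 21 of that RNA. Of the sense reads across both positions (1450 in WT, 603 in KO), 56.3% and 60.7% had both changes, 41.3% and 36.8% had neither, and 2.41% and 2.49% had one of them or another base. The KO/WT ratio was 0.442 (0.389 to 0.5004) with both changes and 0.365 (0.312 to 0.427) with neither, and the intervals overlap. At sense-625 and its neighbours, A634G and U637C occurred together in 42.6% of 726 WT and 44.1% of 261 KO reads, with ratios of 0.367 (0.293 to 0.456) with both and 0.349 (0.282 to 0.428) with neither. The small RNAs with both changes and those with neither thus had lower levels in KO, by amounts not told apart at this depth. L1 mRNA itself was not measured by these reads.

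Compared with the rest of the same copy, the region differed on the sense strand. The sense ratio of 0.379 lay below the 0.482 (0.467 to 0.497) of the sequence upstream of position 601 (Fisher's exact test, p = 7.27e-28) and the 0.456 (0.448 to 0.466) of the sequence downstream of 1850 (p = 9.42e-25). By distinct sequences the sense values were 0.497, 0.555 and 0.521, in the order region, upstream and downstream. For both strands together the difference from the downstream sequence was then not detectable (Fisher's exact test, p = 0.597), against p = 1.73e-09 by reads. The antisense ratio of 0.306 was not distinguishable from 0.293 (0.274 to 0.313) upstream (Fisher's exact test, p = 0.256) or 0.301 (0.294 to 0.308) downstream (p = 0.460). The region held 25.3% of the WT and 23.2% of the KO 24–33-nt reads placed on the copy, of which it is 20.7% by length. The sense share of its WT reads, 59.0%, lay between the 75.7% upstream and the 51.0% downstream.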

How the data were processed

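Small RNA (TruSeq Small RNA kit, MiSeq, 50-bp single-end reads) was measured in 1 WT and 1 Hsp90α KO library. After adaptor removal the authors collapsed identical reads, and the deposited tables hold the raw count of each sequence (11 to 48 nt), neither mapped nor normalized. The genome build in the submitters' processing notes bears on no deposited value. Exact matches of at least 16 nt to GENCODE M21 (GRCm38) transcripts set aside miRNA (2202 hairpins, sense) and structural RNA. Nuclear tRNA is not in these transcripts. The other sequences of 16 to 36 nt were placed on the L1 copy, ungapped, with up to 2 mismatches, and scaled to miRNA reads.

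Ratios have 95% Clopper-Pearson intervals, shares 95% Wilson intervals, and tables of reads were compared with two-sided Fisher's exact tests. At these depths 3 reads are 4.68e-05% (WT) and 5.37e-05% (KO) of a library. Named features were the 5 fullest 5′ ends of each strand, the 5 pairs overlapping by 10 nt with the largest product of reads, the 3 highest and 3 lowest ratios among 5′ ends with at least 50 reads, and the 3 fullest 19-nt and 16-nt RNAs. The region, lists and tests were chosen with earlier results of these data known. Sequences come from the deposited tables. The placement and intervals were tested on simulated data. Alternatives covered the normalizing total, mismatches, reads or distinct sequences, a minimum of 2 reads, the fullest ends and tied places. Placement ran in numba 0.67.0, intervals and tests in scipy 1.17.1, and sequence handling in Biopython 1.88 under Python 3.11.15.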

Additional observations from a re-analysis of the deposited data

Results flagged for a closer look

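Reads longer than the members, of 37 to 48 nt, were also placed on the region, and were singled out because the comparisons above leave them out. They numbered 784 in WT (449 sense, 335 antisense) and 54 in KO (22 sense, 32 antisense), above the 3 reads that a count of 0 allows in either. This gave a scaled ratio of 0.0678, with an interval of 0.0505 to 0.0894. Over the whole libraries, reads of 37 to 48 nt that were neither miRNA nor structural had a ratio of 0.171 (0.169 to 0.173). At 34 to 36 nt the ratio was 0.222 (0.180 to 0.272) in the region and 0.429 (0.426 to 0.433) over the libraries. The part of this library-wide difference in the values of the region was not tested.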

How the results depend on the processing

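The 5 KO/WT ratios of the region (all, sense and antisense 24–33 nt, 19 nt and 16 nt) kept an interval below 1 under all 36 alternatives run. They ranged from 0.330 to 0.464 for all RNAs, 0.361 to 0.497 for sense, 0.276 to 0.415 for antisense, 0.704 to 0.824 for 19 nt and 0.600 to 0.743 for 16 nt, and counting each distinct sequence once gave the highest value for the first 3. That count also gave a region-to-downstream quotient of ratios of 0.987, no longer past the threshold (Fisher's exact test, p = 0.597), against 0.918 by reads. With 0 mismatches the sense share was 63.5% in WT and 69.5% in KO, adenine at the 10th position 37.9% and 39.0% of sense and 86.9% and 84.9% of antisense reads, first-position uracil of antisense reads 30.7% and 30.9%, and the 10-nt overlap 60.2% and 57.7%. With each distinct sequence counted once, first-position uracil was 59.6% and 61.2% of sense and 56.6% and 56.8% of antisense RNAs, adenine at the 10th position 45.4% and 46.7% of sense and 54.0% and 54.0% of antisense RNAs, and the overlap 12.8% and 14.2%. With at least 2 reads a sequence the same shares were 82.9% and 82.6%, 37.2% and 37.7%, 34.6% and 35.2%, 80.9% and 79.7%, and 64.5% and 63.3%. Without the fullest end of each strand they were 76.8% and 76.3%, 67.1% and 64.7%, 39.7% and 40.8%, 61.2% and 59.3%, and 18.5% and 18.6%, and the sense share was 68.6% and 71.8%. Weighting pairs by the smaller count gave 11.6% and 13.0%. With 10 reads a sequence, 353 of 454 members (77.8%) had a ratio of at most 0.5, against a background of 32.4%, and with 20 reads 179 of 213 (84.0%), against 25.5%. Requiring a single best place could change nothing, since no member had 2 or more equally good places. That setting is counted among the 36 alternatives but did not test the ratios. The alternatives for the comparisons with the rest of the copy, the smaller-count weight and the 10-read minimum were added after seeing the data. No paired analysis was possible because each genotype has 1 library. What limits most 5′ ends is depth: 105 of them reached 50 reads.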

Other observations

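The 3′ ends of the 24–33-nt RNAs were mostly templated. The last base matched the copy in 95.4% of WT and 95.2% of KO sense reads and in 95.3% and 95.8% of antisense reads. A last base that differed was most often adenine, in 2.10% (95% Wilson interval 1.88 to 2.33) of WT and 2.12% (1.79 to 2.52) of KO sense reads and in 2.86% (2.56 to 3.19) and 2.47% (1.999 to 3.05) of antisense reads. It was uracil in 1.67% and 1.84% of sense and 1.18% and 1.07% of antisense reads. The intervals of WT and KO overlap for each of these bases. A differing last base can also be a base of another L1 copy, and the 2 were not told apart.

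The base that follows the 3′ end on the copy was uracil for 13.8% of WT and 14.7% of KO sense reads, against 16.3% uracil in the sense window, and for 35.3% and 37.3% of antisense reads, against 44.4% in the antisense window. An excess of uracil directly after the 3′ end was therefore not seen by reads on either strand. On the antisense strand, however, antisense-1047 held 39.7% of WT and 36.3% of KO reads. The share was not computed without that end, so an excess among the other antisense reads was not tested. By distinct sequences the shares were 16.8% and 17.4% on the sense strand and 43.5% and 46.9% on the antisense strand.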
